A study of Homo sapiens with 30 samples.

Results

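Prostate kallikreins are the secreted serine proteases encoded by KLK2, KLK3, KLK4 and KLK15. These 4 genes were taken by symbol from the 23710 genes of each count table and from the 43497 transcripts of each FPKM table, where 13 transcripts carried their symbols. RNA-seq was done on 30 samples in 10 conditions with 3 replicates each, all from human prostate cancer cell lines. V16D is a castration-resistant line derived from LNCaP cells. MR49F is a line of the same origin that was selected under enzalutamide and is normally kept in 10 µM enzalutamide. Before plating and treatment all cells spent 96 h in full serum without enzalutamide. In full serum, which contains androgens, V16D and MR49F cells received 0.1% DMSO as vehicle or 10 µM enzalutamide, an antiandrogen, for 24 h. In charcoal-stripped serum, which is depleted of steroids, MR49F cells were held for 72 h and then received vehicle (0.1% DMSO and 0.1% ethanol), 1 nM of the androgen dihydrotestosterone (DHT), 10 µM enzalutamide, 500 nM of the BET bromodomain inhibitor JQ-1, DHT with JQ-1, or enzalutamide with JQ-1 for 24 h. V16D cells in charcoal-stripped serum and JQ-1 in full serum were not analysed here. Each line is a single cell line, and RNA of more than one well was combined for each replicate.

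Kallikreins are made as inactive precursors and are cleaved to active proteases. KLK3 encodes prostate-specific antigen (PSA), which liquefies semen and is measured in blood as a marker of prostate cancer. KLK2 encodes a trypsin-like protease that can activate the PSA precursor, KLK4 a protease that also acts in the maturation of tooth enamel, and KLK15 a weakly expressed relative next to KLK3. KLK3 and KLK2 are textbook androgen-induced genes, and androgen response elements are the DNA motifs through which androgens act on such genes. BET bromodomain proteins read acetylated histones and assist transcription, and JQ-1 displaces them from chromatin.

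The genes lie side by side on chromosome 19. In GENCODE release 44 mapped to GRCh37, KLK15 spans bases 51328545 to 51340469 on the minus strand, KLK3 51358171 to 51364020 on the plus strand, KLK2 51364824 to 51383823 on the plus strand and KLK4 51409607 to 51414651 on the minus strand. In these spans KLK3 and KLK2 are 803 bases apart. All 4 genes matched the RefSeq promoter table, and the 250 bases before the RefSeq start of each gene, placed on GRCh37 by exact match, are shown because the members differ in their response to DHT and enzalutamide. Capitals mark the match to the androgen response element (AGAACA and TGTTCT with any 3 bases between them) where it had at most 3 mismatches in the 12 set bases, and elsewhere the core motifs AGAACA or GGAACA on either strand. The windows are chr19:51357921-51358170 (plus strand) for KLK3, chr19:51376445-51376694 (plus strand, inside the GENCODE gene) for KLK2, chr19:51414652-51414901 (minus strand) for KLK4 and chr19:51336831-51337080 (minus strand, inside the GENCODE gene) for KLK15.
KLK3: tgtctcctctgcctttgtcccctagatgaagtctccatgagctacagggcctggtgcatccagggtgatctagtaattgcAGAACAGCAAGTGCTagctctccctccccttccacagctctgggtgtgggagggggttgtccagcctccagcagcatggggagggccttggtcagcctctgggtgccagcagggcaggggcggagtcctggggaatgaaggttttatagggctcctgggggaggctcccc
KLK2: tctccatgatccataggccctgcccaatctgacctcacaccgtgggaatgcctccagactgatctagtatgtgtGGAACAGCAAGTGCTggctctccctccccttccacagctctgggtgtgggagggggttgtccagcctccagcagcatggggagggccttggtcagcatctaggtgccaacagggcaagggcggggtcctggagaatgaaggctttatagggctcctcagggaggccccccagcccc
KLK4: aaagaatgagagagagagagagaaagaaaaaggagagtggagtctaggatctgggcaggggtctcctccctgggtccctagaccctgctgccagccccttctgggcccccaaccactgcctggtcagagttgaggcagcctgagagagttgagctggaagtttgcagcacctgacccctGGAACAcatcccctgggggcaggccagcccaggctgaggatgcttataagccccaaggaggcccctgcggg
KLK15: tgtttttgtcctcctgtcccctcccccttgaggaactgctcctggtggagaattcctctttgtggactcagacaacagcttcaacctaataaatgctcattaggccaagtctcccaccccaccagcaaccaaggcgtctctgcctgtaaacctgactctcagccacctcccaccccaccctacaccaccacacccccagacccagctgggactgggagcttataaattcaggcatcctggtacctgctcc

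The KLK3 and KLK2 windows shared 211 identical columns in an alignment of 266 and an unbroken run of 80 bases. The other 5 pairs shared 47.3% to 51.6% of alignment columns and no run over 9 bases. The best match to the androgen response element was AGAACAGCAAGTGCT in KLK3, with 2 mismatches, and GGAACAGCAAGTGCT in KLK2, with 3. Of 35114 promoter windows of the same length, 416 (1.18%) held a match with at most 2 mismatches and 3221 (9.17%) one with at most 3. The best matches in KLK4 and KLK15 had 5 mismatches. KLK4 held the core motif GGAACA, found in 11.6% of all windows, and KLK15 held neither core motif. TATAAA on either strand was found in the KLK3, KLK2 and KLK15 windows and in 10.7% of all windows. These matches describe letters in the reference and are not evidence of binding. Sequence outside these windows was not searched, so a missing match here does not mean that a gene lacks such an element.

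Full-serum samples had 13170504 to 21154962 reads counted on genes, which were 73.0% to 77.8% of all reads that the counting put on genes, outside genes or on several genes. Stripped-serum samples had 982130 to 1813262, which were 5.13% to 7.66%. The kallikreins followed, with a median of 30.9 reads per FPKM for KLK3 in full serum and 2.70 in stripped serum. FPKM (fragments per kilobase of transcript, scaled to library size and summed over the transcripts of a gene) and counts come from different programs, so changes are tested on counts and set beside a test on FPKM. The libraries keep strand, and whether the counts of both sera were made with the same strand setting is not given in the sources used here, so the stripped-serum counts may hold reads of the opposite strand. Over the 9 stripped-serum comparisons of 2 groups, both measures gave the same sign for KLK2, KLK3 and KLK4 in 9 of 9. Averaged over all samples, 7 of 7 luminal prostate markers were at 1 FPKM or more, as were 0 of 3 basal, 0 of 3 endothelial, 1 of 4 fibroblast and 1 of 3 leukocyte markers. The summed level of the fibroblast markers was 0.711 to 2.68 FPKM and that of the leukocyte markers 1.31 to 6.44 FPKM over the samples, and their part in the results was not tested.

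KLK3 was the most abundant of the family in 9 of 10 conditions. In FPKM, which is per length and allows genes to be compared, KLK3 made up 79.6% ± 0.235 (SD, n = 3) of the summed kallikrein level in V16D vehicle and 80.5% ± 0.12 in MR49F vehicle in full serum. KLK2 and KLK4 exchanged places. KLK4 stood above KLK2 in V16D with or without enzalutamide, in MR49F in stripped serum with vehicle, and in all 3 conditions with JQ-1. KLK2 stood above KLK4 in MR49F in full serum and in stripped serum with DHT or enzalutamide. In MR49F with JQ-1 alone the order of KLK3 and KLK4 could not be told, as their samples overlapped. KLK15 was lowest in all conditions, at 0.285 to 3.25 FPKM.

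**Figure D1:**
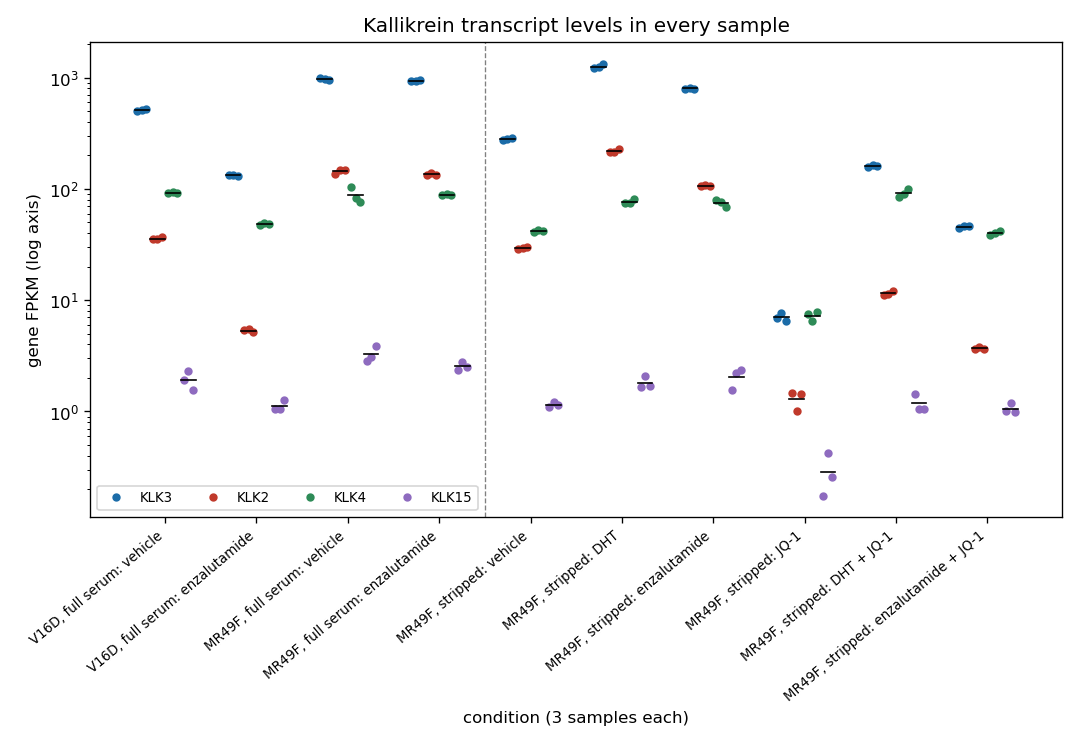
Gene FPKM on a log axis for KLK3, KLK2, KLK4 and KLK15 in each of 30 samples, with a black bar at the mean of the 3 samples of a condition and a dashed line between full and charcoal-stripped serum. KLK3 ranges from 7.01 with JQ-1 alone to 1258 with DHT, whereas KLK4 stays between 40.3 and 92.6 in all conditions but JQ-1 alone, where it is 7.29.

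The range over conditions set the members apart. From the lowest to the highest condition mean, KLK3 differed 179-fold, KLK2 169-fold, KLK4 12.7-fold and KLK15 11.4-fold. KLK2 and KLK3 had the same order of all 10 conditions, from DHT in stripped serum at the top to JQ-1 alone at the bottom. In that order only vehicle and enzalutamide of MR49F in full serum had overlapping samples. For KLK4 the highest 6 conditions, from 74.95 to 92.6 FPKM, each overlapped the next. Levels in the different sera are given side by side and were not tested, since serum and experiment cannot be told apart.

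In V16D cells the question was how far enzalutamide lowers androgen-driven transcription. All 4 kallikreins fell with enzalutamide, where 19.3% of 14079 genes were called lower. KLK2 stood at 35.7, 35.2 and 36.7 FPKM with vehicle and at 5.35, 5.46 and 5.14 with enzalutamide. KLK3 stood at 500, 509 and 518 FPKM with vehicle and at 133, 134 and 130 with enzalutamide. KLK4 stood at 91.9, 93.8 and 92.2 FPKM with vehicle and at 47.8, 49.3 and 48.5 with enzalutamide. In all 3 genes every vehicle sample lay above every treated sample. By edgeR's quasi-likelihood test on counts with Benjamini-Hochberg adjustment, KLK2 was 6.82-fold lower (log2 fold change -2.77, SE 0.05, adjusted p = 1e-300, the smallest value used). KLK3 was 3.70-fold lower (log2 fold change -1.89, SE 0.02, edgeR adjusted p = 1e-300). KLK4 was 1.96-fold lower (log2 fold change -0.97, SE 0.03, edgeR adjusted p = 4.34e-128). The intervals of these 3 log2 fold changes did not overlap one another. KLK15, at 1.90, 2.29 and 1.57 FPKM with vehicle and 1.04, 1.06 and 1.26 with enzalutamide, was 1.88-fold lower (edgeR adjusted p = 0.000149).

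In MR49F cells in full serum none of the 4 kallikreins passed the threshold with enzalutamide, where 8.48% of 13927 genes were called. KLK2 stood at 135, 148 and 147 FPKM with vehicle and at 134, 138 and 134 with enzalutamide. KLK3 stood at 993, 974 and 945 FPKM with vehicle and at 941, 937 and 946 with enzalutamide. The samples overlapped for both. KLK2 had a log2 fold change of -0.12 (95% interval -0.21 to -0.02, unadjusted p = 0.0203 and adjusted p = 0.12 by edgeR). KLK3 had -0.09 (95% interval -0.21 to 0.03, edgeR adjusted p = 0.341), KLK4 0.00 (-0.19 to 0.19, edgeR adjusted p = 0.982) and KLK15 -0.34 (-0.64 to -0.05, unadjusted p = 0.0274 and adjusted p = 0.143 by edgeR). At unadjusted p under 0.05, KLK2 and KLK15 were thus below vehicle, and neither DESeq2 nor limma called any of the 4 (limma called 4.6% of genes), while an edgeR fit on all full-serum groups called KLK2 (log2 fold change -0.12, adjusted p = 0.0202). Of the vehicle samples, replicate 1 stood apart over all genes, with a chi-square per degree of freedom of 9.27 and 10.9 against replicates 2 and 3, which differed from each other by 2.16, while pairs in the other groups reached at most 2.66. For KLK4 it was at 104 FPKM against 82.4 and 76.9. Without it 2 kallikreins passed, KLK2 with a log2 fold change of -0.14 (edgeR adjusted p = 0.000132) and KLK4 with 0.13 (edgeR adjusted p = 0.0102).

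The difference between the lines was tested as an interaction. The effect of enzalutamide was higher in MR49F than in V16D for KLK2 by 2.65 on the log2 scale (95% interval 2.52 to 2.77, edgeR adjusted p = 3.86e-17), for KLK3 by 1.79 (1.66 to 1.92, edgeR adjusted p = 4.9e-14) and for KLK4 by 0.96 (0.76 to 1.16, edgeR adjusted p = 6.75e-07). These 3 of 4 compare with 4.19% of 14471 genes called in that direction. KLK15 had 0.56 (0.07 to 1.05, edgeR adjusted p = 0.186).

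The lines also differed without drug. In vehicle, 3 of 4 kallikreins were higher in MR49F than in V16D, where 31.9% of 14013 genes were called higher. KLK2 was 4.05-fold higher (log2 fold change 2.02, SE 0.05, edgeR adjusted p = 1.66e-11) and KLK3 1.99-fold higher (log2 fold change 0.99, SE 0.05, edgeR adjusted p = 2.5e-08). KLK15, at 2.81, 3.09 and 3.86 FPKM in MR49F, was 1.71-fold higher (edgeR adjusted p = 0.00169). KLK4 had a log2 fold change of -0.15 (95% interval -0.34 to 0.03, edgeR adjusted p = 0.139). Without MR49F vehicle replicate 1 KLK4 passed, with -0.27 (edgeR adjusted p = 9.01e-10).

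In stripped serum the question was whether DHT and enzalutamide raise androgen-induced genes in MR49F cells. KLK2 stood at 28.9, 29.6 and 30.1 FPKM with vehicle, at 214, 213 and 230 with DHT and at 106, 108 and 105 with enzalutamide. KLK3 stood at 277, 282 and 289 FPKM with vehicle, at 1212, 1235 and 1327 with DHT and at 794, 810 and 796 with enzalutamide. KLK4 stood at 41.0, 42.7 and 42.1 FPKM with vehicle, at 74.4, 74.7 and 81.0 with DHT and at 79.9, 76.6 and 68.4 with enzalutamide. The 3 conditions did not overlap for KLK2 and KLK3, and for KLK4 DHT and enzalutamide overlapped each other but not vehicle. The 3 members that passed the filter on counts rose with both ligands, where 19.4% of 11004 genes were called higher with DHT and 4.38% of 11131 with enzalutamide.

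With DHT, KLK2 was 7.91-fold higher (log2 fold change 2.98, SE 0.10, edgeR adjusted p = 1.52e-17), KLK3 4.86-fold (2.28, SE 0.08, edgeR adjusted p = 5.64e-17) and KLK4 1.75-fold (0.81, SE 0.11, edgeR adjusted p = 3.44e-06). With enzalutamide, KLK2 was 3.38-fold higher (log2 fold change 1.76, SE 0.10, edgeR adjusted p = 8.6e-10), KLK3 2.92-fold (1.54, SE 0.08, edgeR adjusted p = 2.02e-10) and KLK4 1.61-fold (0.69, SE 0.11, edgeR adjusted p = 0.000399). KLK15 had 0 to 7 counted reads in any stripped-serum sample and was filtered out of the count tests of 2 groups there. Its FPKM of 1.09, 1.22 and 1.14 with vehicle compared with 1.65, 2.07 and 1.70 with DHT (adjusted p = 0.00133 by limma on log2(FPKM + 1), which called 72.1% of 12180 genes) and 1.55, 2.20 and 2.38 with enzalutamide (limma adjusted p = 0.00557, with 38.7% of 12178 genes called).

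DHT and enzalutamide were also compared directly, at 1 nM and 10 µM, which are not matched doses. KLK2 was 2.32-fold higher with DHT than with enzalutamide (log2 fold change 1.22, 95% interval 1.030 to 1.403, edgeR adjusted p = 3.69e-09) and KLK3 1.65-fold higher (0.73, 0.57 to 0.88, edgeR adjusted p = 4.31e-07). These 2 members compare with 10.3% of 10916 genes called higher. KLK4 had 0.11 (-0.12 to 0.33, edgeR adjusted p = 0.538), and this interval leaves room for a difference of up to 0.33 on the log2 scale.

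The effect of enzalutamide on MR49F cells was then set between the sera. It was higher in stripped than in full serum for KLK2 by 1.92 on the log2 scale (edgeR adjusted p = 5.66e-12), for KLK3 by 1.68 (edgeR adjusted p = 1.54e-11) and for KLK4 by 0.73 (edgeR adjusted p = 0.00138), and 7.59% of 14178 genes were called in that direction. This test sets counts of the 2 sera against each other, and on log2(FPKM + 1) the differences were 1.89, 1.54 and 0.79 (limma adjusted p = 3.2e-09, 6.33e-09 and 0.00113). KLK15 had 0.75 (95% interval -0.66 to 2.17, edgeR adjusted p = 0.584) on counts and passed on FPKM (0.75, adjusted p = 0.0042 by limma on log2(FPKM + 1), which called 34.1% of 12981 genes).

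JQ-1 alone brought the kallikreins to their lowest levels. With JQ-1, KLK3 stood at 6.97, 7.61 and 6.45 FPKM, KLK2 at 1.45, 1.01 and 1.43, KLK4 at 7.49, 6.54 and 7.83, and KLK15 at 0.176, 0.423 and 0.258. Every sample lay below every vehicle sample of the same gene. Against vehicle, KLK3 was 34.5-fold lower (log2 fold change -5.11, SE 0.13, edgeR adjusted p = 1.03e-34), KLK2 19.7-fold lower (-4.30, SE 0.19, edgeR adjusted p = 1.75e-24) and KLK4 6.68-fold lower (-2.74, SE 0.17, edgeR adjusted p = 1.92e-18). These 3 members compare with 23.9% of 11332 genes called lower. The KLK2 value rests on 15, 6 and 10 counted reads with JQ-1, the KLK3 value on 25, 25 and 20 and the KLK4 value on 19, 18 and 34. KLK2 met the count filter only through the vehicle samples, so its edgeR p adds no support. On log2(FPKM + 1), where every sample with JQ-1 reached 1 FPKM, KLK2 changed by -3.74. KLK15 differed by -0.75 on the log2(FPKM + 1) scale (limma adjusted p = 4.99e-05, with 75.1% of 12203 genes called). It met the filter of 1 FPKM in 3 samples only through the vehicle samples, so this p adds no support. Its counted reads were 2, 2 and 3 with vehicle and 0, 3 and 1 with JQ-1.

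With a ligand present, KLK4 parted from KLK2 and KLK3. KLK3 stood at 158, 164 and 161 FPKM with DHT and JQ-1 and at 44.9, 46.6 and 46.1 with enzalutamide and JQ-1. KLK2 stood at 11.2, 11.3 and 12.2 FPKM with DHT and JQ-1 and at 3.63, 3.78 and 3.65 with enzalutamide and JQ-1. KLK4 stood at 85.4, 90.8 and 98.9 FPKM with DHT and JQ-1 and at 38.6, 40.3 and 41.9 with enzalutamide and JQ-1. For KLK3 and KLK2 these samples lay far below those of the ligand alone, whereas for KLK4 every sample with DHT and JQ-1 lay above every sample with DHT.

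Against DHT alone, adding JQ-1 left KLK2 18.7-fold lower (log2 fold change -4.23, SE 0.10, edgeR adjusted p = 5.03e-28) and KLK3 7.20-fold lower (-2.85, SE 0.08, edgeR adjusted p = 1.13e-26), and 28% of 10779 genes were called lower. KLK4 had a log2 fold change of 0.19 (95% interval -0.02 to 0.39, edgeR adjusted p = 0.115) on counts and of 0.25 on FPKM (adjusted p = 0.00438 by limma on log2(FPKM + 1), which called 78.8% of 11856 genes). Without DHT with JQ-1 replicate 1, or without DHT replicate 3, KLK4 also passed on counts, with 0.29 (edgeR adjusted p = 0.0257) and 0.26 (edgeR adjusted p = 0.0397). KLK15, at 1.44, 1.06 and 1.06 FPKM, differed by -0.36 on the log2(FPKM + 1) scale (limma adjusted p = 0.0056).

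Against enzalutamide alone, adding JQ-1 lowered the 3 members tested, where 23.2% of 10863 genes were called lower. KLK2 was 21.9-fold lower (log2 fold change -4.45, SE 0.14, edgeR adjusted p = 4.19e-19), KLK3 14.9-fold (-3.89, SE 0.09, edgeR adjusted p = 3.82e-22) and KLK4 1.70-fold (-0.76, SE 0.11, edgeR adjusted p = 3.6e-06). KLK15, at 1.01, 1.19 and 0.993 FPKM, differed by -0.55 on the log2(FPKM + 1) scale (limma adjusted p = 0.00122, with 75.7% of 12148 genes called). It met the filter of 1 FPKM in 3 samples only through the samples with enzalutamide alone, so this p adds no support. Its counted reads were 2, 3 and 4 with enzalutamide alone and 0, 7 and 2 with enzalutamide and JQ-1.

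**Figure D2:**
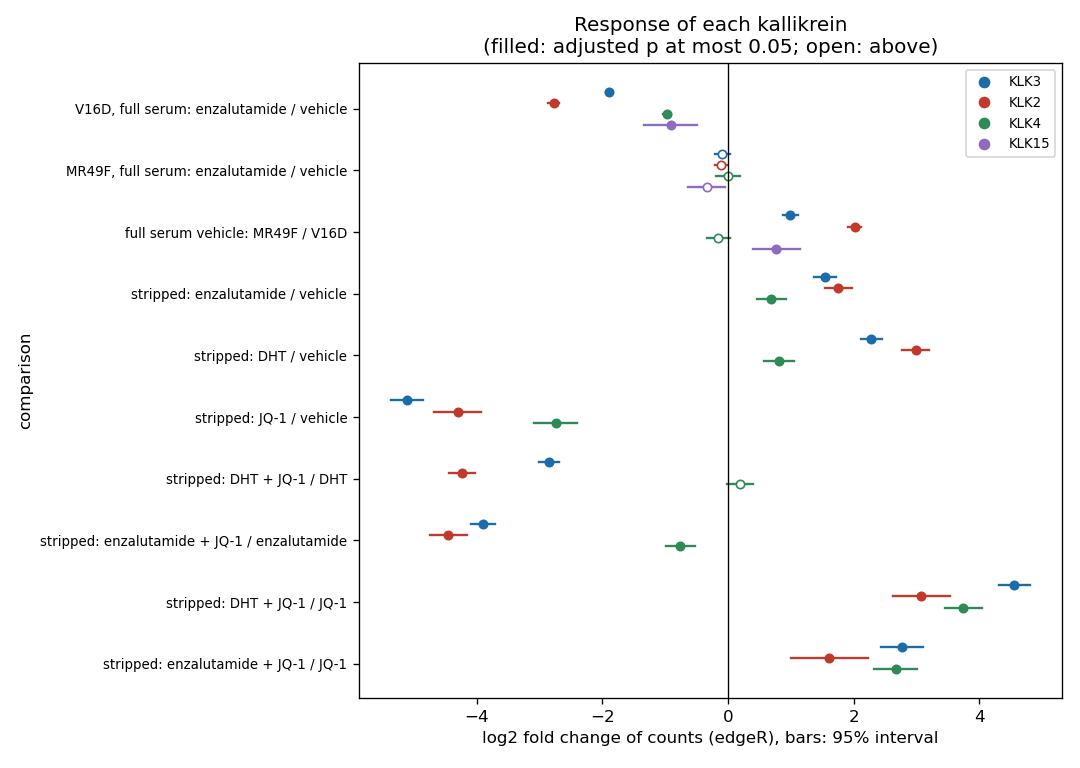
Log2 fold change of counts for each kallikrein in 10 comparisons, with bars for the 95% interval from edgeR. Filled points passed an adjusted p of 0.05, and KLK15 is absent in stripped serum, where its counts were filtered out. With DHT and JQ-1 against DHT, KLK4 sits at 0.19 while KLK3 and KLK2 sit at -2.85 and -4.23.

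Ligands still raised the kallikreins within JQ-1. Against JQ-1 alone, DHT raised KLK3 23.55-fold (log2 fold change 4.56, SE 0.12, edgeR adjusted p = 5.9e-38), KLK4 13.4-fold (3.75, SE 0.15, edgeR adjusted p = 4.02e-30) and KLK2 8.44-fold (3.08, SE 0.23, edgeR adjusted p = 1.92e-17), and 12.3% of 10847 genes were called higher. Enzalutamide raised KLK3 6.80-fold (2.77, SE 0.17, edgeR adjusted p = 2.19e-40), KLK4 6.35-fold (2.67, SE 0.17, edgeR adjusted p = 3.87e-37) and KLK2 3.06-fold (1.61, SE 0.31, edgeR adjusted p = 3.18e-05), and 3.16% of 10708 genes were called higher. In both comparisons KLK2 met the count filter only through the samples with ligand, so its edgeR p-values there add no support. On log2(FPKM + 1) KLK2 differed from JQ-1 alone by 2.45 with DHT and by 1.03 with enzalutamide. With JQ-1 in both, DHT stood above enzalutamide for KLK3 by 1.78 on the log2 scale (edgeR adjusted p = 4.08e-38), for KLK2 by 1.45 (edgeR adjusted p = 4.67e-10) and for KLK4 by 1.07 (edgeR adjusted p = 6.01e-17), and 10.1% of 10551 genes were called higher. Without JQ-1 these differences between the ligands had been 0.73, 1.22 and 0.11. The change in the difference between ligands was not tested.

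Whether a ligand acted differently with JQ-1 was tested as an interaction on the log2 scale, where a higher effect is a larger fold. In mean FPKM, KLK3 rose from 283 to 1258 with DHT alone and from 7.01 to 161 with DHT within JQ-1. With enzalutamide KLK3 rose from 283 to 800 and from 7.01 to 45.9. The rise of KLK3 in level was thus smaller with JQ-1. KLK4 rose with DHT from 41.9 to 76.7 without JQ-1 and from 7.29 to 91.7 with it. With enzalutamide KLK4 rose from 41.9 to 74.95 without JQ-1 and from 7.29 to 40.3 with it, a similar rise in level. The log2 effect of DHT was higher with JQ-1 than without for KLK4 by 2.92 (95% interval 2.51 to 3.34, edgeR adjusted p = 3.72e-15) and for KLK3 by 2.26 (1.93 to 2.59, edgeR adjusted p = 5.33e-15), where 5.79% of 11572 genes were called in that direction. KLK2 had 0.08 (-0.40 to 0.55, edgeR adjusted p = 0.891). The log2 effect of enzalutamide was higher with JQ-1 for KLK4 by 1.98 (1.55 to 2.42, edgeR adjusted p = 1.64e-07) and for KLK3 by 1.22 (0.85 to 1.59, edgeR adjusted p = 8.36e-05), where 0.49% of 11625 genes were called in that direction. KLK2 had -0.15 (-0.89 to 0.60, edgeR adjusted p = 0.917). The KLK2 interactions depended on the measure at its low level with JQ-1. On log2(FPKM + 1) they were -0.39 (limma adjusted p = 0.0057, 48% of genes called) for DHT and -0.78 (limma adjusted p = 0.000132, 19.2% of genes called) for enzalutamide, and with 0.1 in place of 1 they were 0.19 (limma adjusted p = 0.301) and -0.39 (limma adjusted p = 0.0745).

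The balance between members was measured inside each library as the log2 ratio of FPKM to KLK3. KLK3 exceeded KLK4 16.4 ± 0.122-fold (SD, n = 3) with DHT, 10.7 ± 0.861-fold with enzalutamide and 6.74 ± 0.12-fold with vehicle in stripped serum. With JQ-1 the same ratio was 1.76 ± 0.122 with DHT, 1.14 ± 0.0344 with enzalutamide and 0.973 ± 0.174 without ligand. KLK4 thus rose relative to KLK3 by 3.22 on the log2 scale when JQ-1 joined DHT, by 3.23 when it joined enzalutamide and by 2.80 when it was given alone, with no overlap between samples. The exact two-sided permutation p was 0.1 for each of the 3, the smallest that 3 against 3 samples can give (adjusted p = 0.116 over 36 ratio tests), so no ratio test could pass 0.05. Samples of the groups did not overlap in 31 of the 36. The 36 reuse the same groups and the same KLK3 values, and no share over ratios of other genes is given. The count is therefore a description and not a test.

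The ratio of KLK2 to KLK3 moved as well. KLK3 exceeded KLK2 5.75 ± 0.0687-fold with DHT and 13.96 ± 0.705-fold with DHT and JQ-1, a change of the log2 ratio by -1.27 (exact permutation p = 0.1). With JQ-1 alone KLK2 instead rose against KLK3 by 0.89 on the log2 scale (exact permutation p = 0.1), at the low KLK2 level given above. Against JQ-1 alone the log2 ratio to KLK3 moved by -1.43 for KLK2 and -0.87 for KLK4 with DHT, and by -1.24 and -0.24 with enzalutamide, and samples overlapped only for KLK4 with enzalutamide. Between the lines in vehicle it was 1.07 higher for KLK2 and 1.02 lower for KLK4 in MR49F. In V16D enzalutamide moved the log2 ratio to KLK3 by -0.79 for KLK2, by 1.01 for KLK4 and by 1.22 for KLK15, without overlap of samples and each with an exact permutation p = 0.1. In MR49F in full serum the same ratios moved by -0.04, 0.08 and -0.29, and the samples overlapped for all 3.

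**Figure D3:**
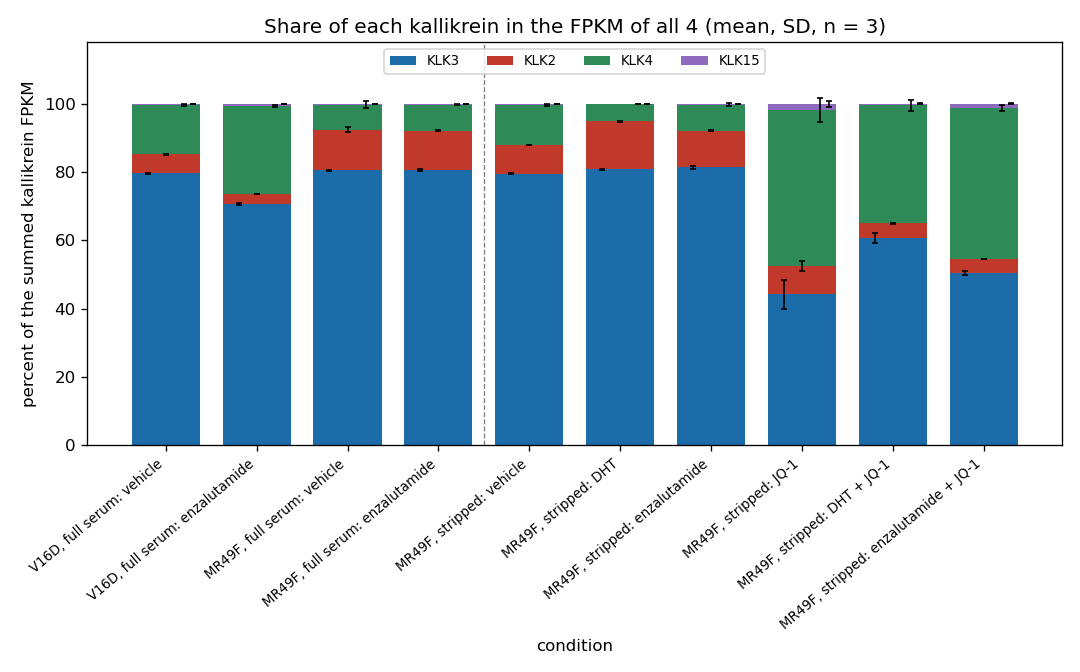
Percent of the summed FPKM of the 4 kallikreins that each member made up, as the mean of 3 samples in each condition, with the SD of a member drawn at the top of its segment. KLK4 holds 4.93% with DHT, 34.5% with DHT and JQ-1 and 45.8% with JQ-1 alone, while KLK3 goes from 80.9% to 60.7% and 44.2%.

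Seen as shares of the family, KLK4 made up 4.93% ± 0.0282 with DHT, 34.5% ± 1.55 with DHT and JQ-1, 7.62% ± 0.558 with enzalutamide and 44.3% ± 0.805 with enzalutamide and JQ-1 (SD, n = 3). The summed level of the family fell from 1555 ± 73.98 FPKM with DHT to 265 ± 8.18 with DHT and JQ-1. KLK2 made up 14.1% ± 0.142 with DHT and 4.35% ± 0.126 with DHT and JQ-1.

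Transcripts of KLK3 were led by the same one in all conditions. NM_001648 held 67.2% to 77.3% of the KLK3 FPKM in the condition means and NM_001030047 16.5% to 25.0%. KLK4 was represented by the single transcript NM_004917. Among the 5 KLK2 transcripts NM_005551 stood highest in every sample with DHT (36.4%, 33.8% and 32.4%) and with vehicle in stripped serum (33.2%, 39.1% and 33.3%). The share of NM_001002231 in V16D with enzalutamide was scattered, at 39.3%, 55.1% and 17.6% in the 3 samples. The share of NM_138564 in KLK15 was likewise spread over 35.3%, 66.5% and 88.8% in MR49F vehicle in full serum. These shares come from a model fitted to single-end reads of 50 bases and were not tested.

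The genes closest to each kallikrein over the 10 condition means, centred within each serum, were sought among 13705 other genes as a description. The points share libraries and the ligand contrasts, so no p is given. For KLK3 they were NEDD4L (r = 0.98), GALNT7 (0.97) and EPB41L4B (0.96), with KLK2 at rank 11 (0.95), KLK15 at rank 62 (0.91) and KLK4 at rank 370 (0.85). For KLK2 they were SDF2L1, SEMA6D and CRYM (each 0.98), with KLK3 at rank 36, KLK15 at rank 236 and KLK4 at rank 2340 (0.70). For KLK4 they were EHF (0.94), CDC14B (0.92) and C12orf65 (0.91), with KLK3 at rank 26, KLK15 at rank 50 and KLK2 at rank 215. For KLK15 they were GUCY1A3 (0.95), MAOA (0.94) and C19orf48 (0.94), with KLK3 at rank 10, KLK2 at rank 11 and KLK4 at rank 154.

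Other kallikreins were scarcely detected. Of 13 on the list, 3 or 4 passed the filter in the full-serum fits and none in the 2-group fits in stripped serum. With enzalutamide in V16D 0 rose and 1 of 3 fell (median log2 fold change -0.46 against 0.00 over all genes, of which 19.3% were called lower), and in MR49F none of 3 was called by edgeR. Between the lines in vehicle 1 of 3 was higher and 2 were lower in MR49F, against 31.9% and 31.8% of all genes. The kallikrein pseudogene KLKP1, one of those lower, between KLK2 and KLK4, was 3.62-fold lower in MR49F than in V16D with vehicle (edgeR adjusted p = 3.36e-06), at 0.933 ± 0.235 against 3.35 ± 0.536 FPKM, which was opposite in direction to KLK2 and KLK3. The strand setting of the counts is not given in the sources used here.

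Among 8 neighbours of the locus that are no kallikreins, C19orf48, an open reading frame gene beyond KLK1 from KLK15, moved in the same directions as KLK3. Against vehicle in stripped serum it was 2.59-fold higher with DHT (edgeR adjusted p = 2.37e-11), 2.12-fold higher with enzalutamide (edgeR adjusted p = 8.39e-07) and 3.57-fold lower with JQ-1 (edgeR adjusted p = 1.93e-18). Of the 3 neighbours tested with each ligand, 2 rose and none fell on counts, against 19.4% of all genes called higher with DHT and 4.38% with enzalutamide, and on FPKM limma called 1 of 3 higher with each. With JQ-1 0 of 2 rose and 1 fell on counts, against 22.8% and 23.9% of all genes, and on FPKM limma called 1 of 3 higher and 2 lower. The other that rose was ACPT, an acid phosphatase, 3.19-fold higher with DHT on counts (edgeR adjusted p = 9.89e-05) but at 0.290 ± 0.125 FPKM against 0.0715 ± 0.0309. At 6.31 ± 2.19 CPM with vehicle, ACPT met the count filter only through the samples with ligand. This p and its place among the 2 that rose therefore add no support.

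The proteases' inhibitors and substrates gave few measurable genes. Of 8 inhibitors 1 was tested in each 2-group fit in stripped serum, and against vehicle it rose with DHT (log2 fold change 0.34) and fell with JQ-1 (-0.35). Of all genes, 19.4% were called higher with DHT and 23.9% lower with JQ-1. SERPINB6, a cytoplasmic serpin and the inhibitor tested, stood at 46.1 ± 2.43 FPKM with vehicle, 60.8 ± 3.26 with DHT and 31.4 ± 1.15 with JQ-1. Of 7 substrates 3 were tested in each of those fits. Against vehicle, 0 rose and 2 fell with DHT, where 19.4% of all genes were called higher and 18.1% lower, and 1 rose and 2 fell with JQ-1, where 22.8% were called higher and 23.9% lower. FN1, which encodes fibronectin, was 3.08-fold lower with DHT than vehicle (edgeR adjusted p = 1.77e-13) and 5.004-fold lower with JQ-1 (edgeR adjusted p = 8.04e-29). IGFBP3, which encodes a binding protein of insulin-like growth factors, was 3.34-fold lower with JQ-1 (edgeR adjusted p = 7.46e-26). Between the lines in vehicle, FN1 was 13.1-fold and IGFBP3 11.3-fold higher in MR49F (edgeR adjusted p = 5.4e-13 and 1.29e-12).

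For comparison, 20 other androgen-induced genes were followed. With enzalutamide 19 of 20 fell in V16D (median log2 fold change -1.79), where 19.3% of all genes were called lower. In MR49F in full serum 13 of 20 fell (-0.33) against 4.62% of all genes, and limma on FPKM called 8 of 20 lower. In stripped serum 15 of 16 rose with enzalutamide (1.84) and 18 of 19 with DHT (3.06), against 4.38% and 19.4% of all genes, while the median over all genes lay between -0.01 and 0.01. KLK2 and KLK3 shared these directions in V16D and with both ligands. Adding JQ-1 to DHT lowered 10 of 19 and raised 5 (median -0.54), against 28% of all genes lowered and 26.7% raised. Adding it to enzalutamide lowered 7 of 17 and raised 3 (median -0.11), against 23.2% lowered and 22% raised. In both of those comparisons the log2 fold changes of KLK2 and KLK3 lay below the median of the list and that of KLK4 did so only with enzalutamide. FKBP5, a co-chaperone of steroid receptors, was 51.9-fold higher with DHT than vehicle (edgeR adjusted p = 7.3e-22). With JQ-1 added to DHT ADAM7 was at 0 CPM, against 13.2 ± 4.41 with DHT alone. PMEPA1 was 5.54-fold lower with JQ-1 added to DHT (edgeR adjusted p = 5.92e-24) and CENPN 5.75-fold lower (edgeR adjusted p = 6.47e-23).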

How the data were processed

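RNA of 30 samples was sequenced from poly(A) libraries that keep strand, as single reads of 50 bases. The authors mapped the reads to hg19 (GRCh37) with TopHat2 2.0.9 and deposited raw counts per RefSeq symbol (HTSeq, strand setting not given in the sources used here) and FPKM per transcript (Cufflinks 2.1.1). FPKM were added up by symbol. Groups and replicate numbers come from the sample labels. The kallikreins and the gene lists were chosen with earlier results of these data known. The main test was the quasi-likelihood test of edgeR 4.0.16 in R 4.3.3 on counts of the groups compared (TMM, filterByExpr with a minimum count of 10 and a total of 15), with a Benjamini-Hochberg threshold of 0.05 over all genes. P-values below 1e-300 were set to it. On FPKM, limma 3.58.1 was run on log2(FPKM + 1) after keeping genes that reached 1 FPKM in 3 samples, a scale that understates changes of low genes. Ratios used log2(FPKM + 0.1) and exact two-sided permutation tests. Intervals are 95% intervals. The study calls the samples biological replicates. Pairs within a group differed by a chi-square of 1.12 to 10.9 per degree of freedom, so no sample was an exact copy of another. Values near 1 cannot tell biological replicates from repeated sequencing of the same RNA. Alternatives were other filters, size factors and pseudocounts, a replicate block, all groups of a serum in a single fit, DESeq2 1.42.0 and leaving out each replicate. The 4 kallikreins were named in every comparison, and a further gene of that rule is not reported here. Genes of the lists could be named where they passed with at least a 2-fold change and 5 CPM, at most 4 per list and comparison, and those printed are examples. SERPINB6 lies outside that rule and was chosen after its values were seen. For each kallikrein the 3 genes of most similar pattern were named. Scripts were tested on simulated data. Promoter sequences are from RefSeq (GRCh38.p14) and were placed on GRCh37 by exact match. The low counts in stripped serum limit what small changes could be detected.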

Additional observations from a re-analysis of the deposited data

Results flagged for a closer look

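The kallikreins' response differed between groups in 4 tests of a difference, each by edgeR over all genes. The effect of enzalutamide in full serum was higher in MR49F than in V16D for KLK2 (2.65 on the log2 scale), KLK3 (1.79) and KLK4 (0.96). The effect of enzalutamide in MR49F was higher in stripped than in full serum for KLK2 (1.92), KLK3 (1.68) and KLK4 (0.73), where serum and experiment cannot be told apart. The log2 effect of DHT was higher with JQ-1 than without for KLK3 (2.26) and KLK4 (2.92). The log2 effect of enzalutamide was higher with JQ-1 than without for KLK3 (1.22) and KLK4 (1.98). For KLK3 these are larger folds from a low level with JQ-1, and its rise in FPKM was smaller with JQ-1 than without. KLK4 also started from a lower level with JQ-1, at 7.29 against 41.9 FPKM. With enzalutamide the rise of KLK4 in FPKM was similar with and without JQ-1. Each is given here because the difference between the 2 groups' effects passed its own test.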

How the results depend on the processing

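Under alternatives other than leaving out a replicate, 455 fold changes of a kallikrein kept direction and call, 9 passed the threshold newly and 5 changed sign, and those 5 had not passed in the first place. For KLK4 with enzalutamide in MR49F in full serum, 0.00 became -0.0029 with DESeq2 size factors, -0.0013 with all groups in one fit and -0.0039 with DESeq2, and leaving out a replicate gave -0.083 to 0.128. For KLK2 the DHT by JQ-1 difference became -0.39 with limma on log2(FPKM + 1), with and without a filter, and leaving out a replicate gave -0.124 to 0.370. The KLK2 enzalutamide by JQ-1 difference ran from -0.427 to 0.152 leaving out a replicate. The number of kallikreins called with enzalutamide in MR49F in full serum was 0, 1 (KLK2) with all groups in one fit, and 0 to 2 leaving out a replicate. With JQ-1 added to DHT it was 2 on counts and 4 with limma on log2(FPKM + 1), log2(FPKM + 0.1) and without a filter, and for the DHT by JQ-1 difference 2 and 4 with limma on log2(FPKM + 1), with or without a filter. With at least 10 counts required in every sample, 2 in place of 3 kallikreins were called for JQ-1 against vehicle and for each ligand within JQ-1. KLK2 was left out by that filter. The ratio of KLK2 to KLK3 with enzalutamide in MR49F in full serum ran from -0.096 to 0.00048 on the log2 scale leaving out a replicate. The cause of these changes was not tested.

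Same-numbered samples were not treated as pairs in the main test. Correlations of their deviations ran from -0.18 to 0.18, and 0 of 12 comparisons had all 3 over 0.1. With 3 samples a group this cannot exclude a shared block. The replicate block changed no kallikrein's call, and moved the genes called with enzalutamide in stripped serum from 808 to 1323. On ratios its smallest sign-flip p is 0.25.

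Numbers of genes called by edgeR moved over 1.5 times as follows, and the cause was not tested. With DESeq2 enzalutamide in V16D gave 3489 in place of 5276. Enzalutamide in MR49F in full serum gave 1181, 425 with limma without a filter, 2558 with all groups in one fit, 406 without enzalutamide replicate 3 and 2533 without vehicle replicate 1. The line by enzalutamide difference gave 1006, and 1579 without MR49F vehicle replicate 3. In stripped serum DESeq2 and limma (the highest of its settings) gave, in place of 808, 366 and 4709 for enzalutamide, in place of 4122, 2720 and 10178 for DHT, in place of 2122, 1157 and 7646 for DHT against enzalutamide, in place of 4902, 3223 and 10552 for JQ-1 added to enzalutamide, in place of 2400, 1239 and 6621 for DHT within JQ-1, in place of 482, 188 and 1865 for enzalutamide within JQ-1, in place of 1980, 915 and 5272 between the ligands within JQ-1, in place of 1428, 723 and 6504 for DHT by JQ-1, and in place of 104, 56 and 2389 for enzalutamide by JQ-1, which ran from 61 to 293 leaving out a replicate. For enzalutamide without vehicle replicate 1 it was 414. With limma JQ-1 alone gave 10606 in place of 5284, JQ-1 added to DHT 10832 in place of 5891, and serum by enzalutamide 4425 in place of 1613.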
